A study of Mus musculus with 6 samples.

Results

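The apelin and endothelin peptide systems were examined as a set of 10 genes: the ligand genes Apela, Apln, Edn1, Edn2 and Edn3, the receptor genes Aplnr, Ednra and Ednrb, and the endothelin-converting enzyme genes Ece1 and Ece2. Each gene was represented by the array feature that names it alone, and where a gene had several such features, the one was chosen by the highest mean over the 6 arrays, without regard to genotype. Of the 10 genes, 9 were measured, out of 19946 genes compared in all, and Ednra was not analysed here. RNA of whole lungs was hybridised to single-colour arrays, 1 array per embryo at E14.5. The 3 control embryos carried Shh-Cre, and the 3 mutant embryos carried Shh-Cre with floxed alleles. The genotype label of the mutants lists Foxp1flox/flox 2 times and Foxp4flox/flox once, while the title of the series names Foxp1/2/4, which was followed here. Both groups were of mixed C57BL/6 and 129X1 background, both carried the Cre, and the Foxp alleles of the controls are not stated. The study asked what these forkhead transcription factors do for the identity of lung endoderm. Shh-Cre acts in that endoderm, the future epithelium, while the RNA came from all cells of the lung, so fewer cells of a type and less RNA per cell cannot be told apart in these values.

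Apelin and Apela (also called Elabela or Toddler) are secreted peptides that share 1 G protein-coupled receptor, Aplnr, which is known from endothelial and early mesodermal cells. The endothelins are short peptides cut from larger precursors by Ece1 and Ece2. They act through the receptors Ednra, best known from vascular smooth muscle and the neural crest of the face, and Ednrb, known from endothelium and from the neural crest that forms enteric neurons and pigment cells. Edn1 constricts vessels and airways, Edn3 is the ligand that Ednrb needs in the enteric and pigment lineages, and Edn2 is the least widely expressed of the 3.

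The genotype check and the state of the arrays bear on all values below. Foxp2 and Foxp4 were lower in the mutants, by 0.95 and 0.64 on the log2 scale (limma adjusted p = 4.75e-05 and 0.00591), and Foxp1 was at -0.31 ± 0.08 (SE, n = 3 per group, adjusted p = 0.0661). Over all genes, the arrays of a group correlated at 0.994 or more, and the median difference between the groups was -0.01. Mutant 1 stood apart in heart muscle genes, whose median lay 1.18 above the control mean in that array against -0.20 and -0.16 in mutants 2 and 3. Each group held 1 male embryo (control 3 and mutant 3), read from Xist and from genes of the Y chromosome.

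The 250 bases before the annotated start of Apela, Edn3 and Edn1 are shown because these are the 3 genes whose mutant values lay wholly apart from the control values on the feature taken for each gene. They are RefSeq promoter sequences of GRCm38.p6, written 5′ to 3′ on the strand of the gene, with capitals for the forkhead core TGTTT on either strand and for the longer forkhead motif TGTTTAC that contains it. Apela lies on the minus strand at chr8:65037337-65037586, Edn3 on the plus strand at chr2:174760369-174760618, and Edn1 on the plus strand at chr13:42301226-42301475.
Apela: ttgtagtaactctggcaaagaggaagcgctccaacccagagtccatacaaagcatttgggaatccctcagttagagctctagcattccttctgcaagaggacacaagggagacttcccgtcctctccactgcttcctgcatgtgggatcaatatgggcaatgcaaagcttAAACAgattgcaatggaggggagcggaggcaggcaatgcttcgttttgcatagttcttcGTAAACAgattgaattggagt
Edn3: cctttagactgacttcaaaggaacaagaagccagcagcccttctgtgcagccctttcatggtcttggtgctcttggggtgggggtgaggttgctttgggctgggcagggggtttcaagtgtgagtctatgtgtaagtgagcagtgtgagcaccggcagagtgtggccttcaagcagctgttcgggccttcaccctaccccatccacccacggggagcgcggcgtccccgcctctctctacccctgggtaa
Edn1: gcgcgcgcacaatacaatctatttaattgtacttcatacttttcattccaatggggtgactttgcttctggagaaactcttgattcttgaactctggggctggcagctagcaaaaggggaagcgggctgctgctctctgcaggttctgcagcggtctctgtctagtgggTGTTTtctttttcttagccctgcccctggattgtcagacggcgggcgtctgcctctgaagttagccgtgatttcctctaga
The Apela window held 1 match to TGTTTAC, on the strand opposite to the gene, from 21 to 15 bases before the start, and a further core match from 80 to 76 bases before it. The Edn1 window held 1 core match, from 81 to 77 bases before the start. The Edn3 window held 0 matches to either. Among all 32851 promoter windows of this length, 3.17% held TGTTTAC and 46.4% held the core. Of the 9 listed genes with a window, Ednra included, 1 had TGTTTAC and 5 had the core in at least 1 of their windows. The motifs were searched after the sequences had been seen, and whether Foxp proteins bind there was not tested.

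Among the ligand genes, Apela was far higher in the mutants, Edn3 and Edn1 fell, and Apln and Edn2 did not pass the test. No receptor or enzyme gene passed the test, and their groups overlapped on the features taken, while a further feature of Ece2 did not overlap. Apela was already known to be higher when the 10 genes were put together, so its difference is described without a test, and calls are counted over the other 8 measured genes. Of these, 2 were lower and 0 were higher in the mutants at a limma adjusted p under 0.05, where 3.83% of all genes were lower and 3.84% higher (7.66% in either direction). At an unadjusted p under 0.05 the counts were also 2 lower and 0 higher. The share of all genes at that unadjusted limit was not computed. Unadjusted counts here and below therefore have no share over all genes to be set against. The 2 called genes, Edn3 and Edn1, were also the 2 of 8 whose groups did not overlap on the features taken, and 25.9% of all genes had groups that did not overlap.

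**Figure D1:**
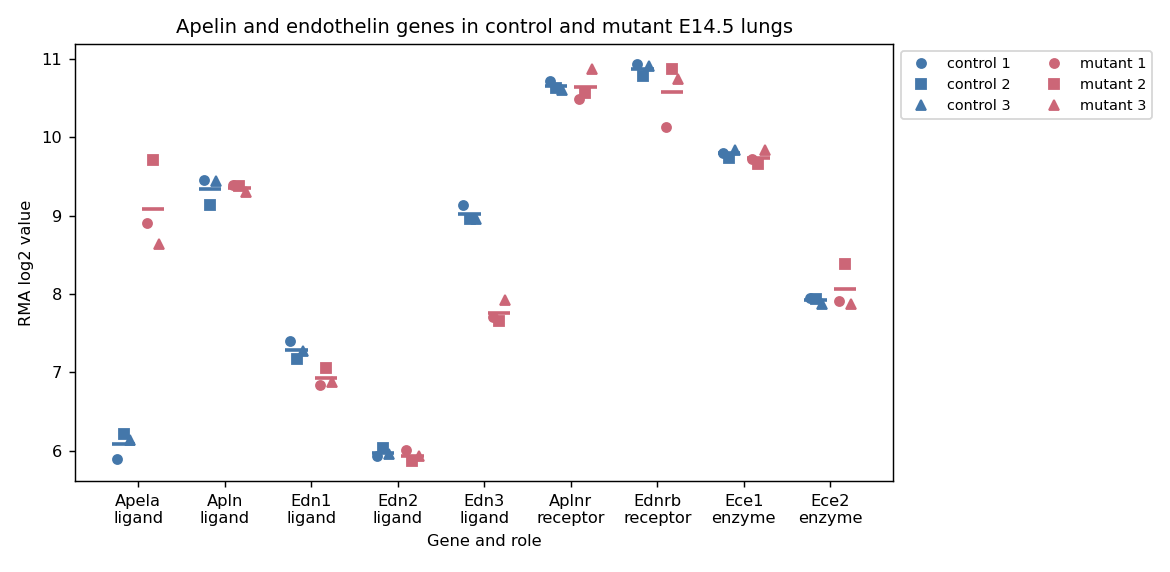
RMA log2 value (vertical axis) of the 9 measured genes in each array, with controls in blue, mutants in red, a symbol for each replicate number and a bar for the group mean. Apela lies above 8.6 in all 3 mutants and below 6.3 in all 3 controls, Edn3 lies lower in all 3 mutants, and Aplnr, Apln, Ece1 and Ece2 (by the feature taken) overlap.

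Apela (feature 10578950) gave 5.89, 6.21 and 6.14 on the arrays of controls 1 to 3, against 8.91, 9.71 and 8.63 for mutants 1 to 3. The control values were close together, and each mutant value was more than 2 log2 units above each control value. The group means were 6.08 ± 0.17 (SD, n = 3) and 9.08 ± 0.56, a difference of 3.00 ± 0.24 (SE) or 8.01-fold. The control mean was dim, at percentile 31.7 of all genes, and whether it was above background was not tested. It was the rise of rank 2 among the 19946 genes. The mutants varied more than the controls, with mutant 2 the highest, and the difference was 2.69 without mutant 2 and 3.23 without mutant 3. Its nearest genes, by the root mean square distance between their 6 deviations from the control mean, were Fst (0.324 log2 units), which encodes the activin antagonist follistatin, Mab21l2 (0.461) and Trf (0.574), the transferrin gene. Fst read 10.14, 10.07 and 9.17 in mutants 1 to 3, so its lowest mutant was also mutant 3 but its highest was mutant 1. Over the 6 arrays Pearson's r with Apela was 0.98 for Fst, 0.98 for Mab21l2 and 0.96 for Trf, which describes mainly the step between the groups they share.

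Apln (feature 10604375), the other ligand of the same receptor, had control values of 9.46, 9.14 and 9.44, and its mutant values were 9.39, 9.38 and 9.30. The groups overlapped, and the difference was 0.01 ± 0.09 (SE, n = 3 per group), with a 95% interval from -0.20 to 0.22 (adjusted p = 0.964). Of the ligand genes that share Aplnr, Apela was thus 3.00 higher on the log2 scale, and the interval for Apln did not reach beyond 0.22. The difference between the 2 was not tested.

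Edn3 (feature 10479165) lay at 9.14, 8.96 and 8.95 for controls 1 to 3, and dropped to 7.71, 7.66 and 7.92 for mutants 1 to 3. All mutants lay more than 1 log2 unit below all controls, and the spread within each group was small. The means were 9.02 ± 0.11 (SD, n = 3) and 7.76 ± 0.14, a difference of -1.26 ± 0.09 (SE) or 2.39-fold (limma adjusted p = 0.000145). It ranked 77 among the falls of all genes. Over the 15 alternatives, which include leaving out each array, the difference lay between -1.33 and -1.19 and the call held, with adjusted p up to 0.00234. The genes nearest to Edn3 over the 6 arrays were Zfp804b (root mean square distance 0.0624), Ppp1r3b (0.0844), a glycogen-targeting subunit of protein phosphatase 1, and Nipal2 (0.103). These differed by -1.28, -1.32 and -1.25 between mutants and controls.

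Edn1 (feature 10404783) had control values of 7.40, 7.17 and 7.27, while the mutants gave 6.84, 7.06 and 6.87. The groups did not overlap, but the highest mutant was within 0.2 of the lowest control. The means were 7.28 ± 0.12 (SD, n = 3) and 6.92 ± 0.12, a difference of -0.36 ± 0.08 (SE) or 1.28-fold (limma adjusted p = 0.0399). This call was weak. The adjusted p was 0.143, 0.0616 and 0.131 without controls 1, 2 and 3, and 0.0914 and 0.113 without mutants 1 and 3, and it stayed under the threshold without mutant 2 (0.017). Rab32 (0.0299), the tubulin gene Tubb2a (0.0452) and Tnmd (0.0491) lay nearest to Edn1 by root mean square distance. Edn2 (feature 10507692) gave 5.93, 6.03 and 5.96 for the controls against 6.01, 5.86 and 5.93 for the mutants, with overlap. Its difference was -0.04 ± 0.06 (SE, n = 3 per group, adjusted p = 0.807).

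**Figure D2:**
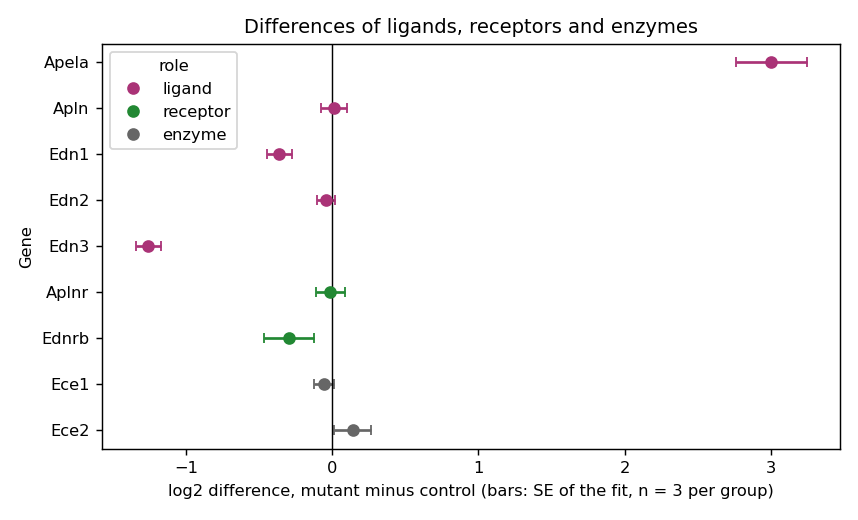
log2 difference between mutants and controls (horizontal axis) for each measured gene, coloured by role, with bars for the SE of the fit (n = 3 per group). Ligand genes span -1.26 to 3.00, and receptor and enzyme genes, by the features taken, lie between -0.29 and 0.14.

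Set side by side, the 5 ligand genes spanned differences from -1.26 to 3.00 with a median of -0.04. The 2 measured receptor genes lay at -0.01 and -0.29 and the enzyme genes at -0.06 and 0.14, and for all 4 the groups overlapped on the features taken. The 0.14 of Ece2 is from a feature that lists none of the transcripts of Ece2 alone, and the feature that lists them was at 0.28 ± 0.07 (SE, n = 3 per group), with groups that did not overlap. Over all genes the median size of a difference was 0.08. No p was computed for ligands against receptors, since the genes were put together with results known.

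Aplnr (feature 10473444) stood at 10.72, 10.62 and 10.60 for the controls, beside 10.49, 10.56 and 10.87 for mutants 1 to 3. The mutants straddled the controls, with mutant 3 the highest and mutant 1 the lowest of all 6. The difference was -0.01 ± 0.10 (SE, n = 3 per group), with a 95% interval from -0.24 to 0.22 (adjusted p = 0.975). Markers of endothelium, the main cell type known for this receptor, gave 1 higher and 0 lower calls in 20 genes, with a median of -0.08. Over all genes, 3.84% were called higher and 3.83% lower. The call was the TGF-beta co-receptor Eng (0.37, adjusted p = 0.00887, and 0.0532 without control 2). At an unadjusted limma p under 0.05, 1 was higher and 3 were lower, and the lower calls numbered 1 without mutant 2 and 2 without mutant 3. The median of these 20 markers lay -0.17, -0.13 and 0.03 from the control mean in mutants 1 to 3, so mutant 3 was the highest of the mutants there too. Their mean level was between 9.69 and 9.71 in controls and between 9.55 and 9.72 in mutants, and their part in the Aplnr values was not tested.

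Ednrb (feature 10422164) stood at 10.94, 10.78 and 10.91 for the controls, beside 10.13, 10.87 and 10.75 for mutants 1 to 3. Mutants 2 and 3 lay within or just below the control range, and mutant 1 lay more than 0.6 below the other 5. The difference was -0.29 ± 0.17 (SE, n = 3 per group), with a 95% interval from -0.70 to 0.11 (adjusted p = 0.422), and it was -0.07 ± 0.08 without mutant 1. Mutant 1 is the array in which heart muscle genes were high. Of 18 heart markers, 0 were called by limma with all arrays, also 0 at an unadjusted p under 0.05, and 4 were lower without mutant 1, and their mean level was between 7.05 and 7.10 in controls and between 6.74 and 8.21 in mutants. The part of heart tissue in the Ednrb value of mutant 1 was not tested.

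**Figure D3:**
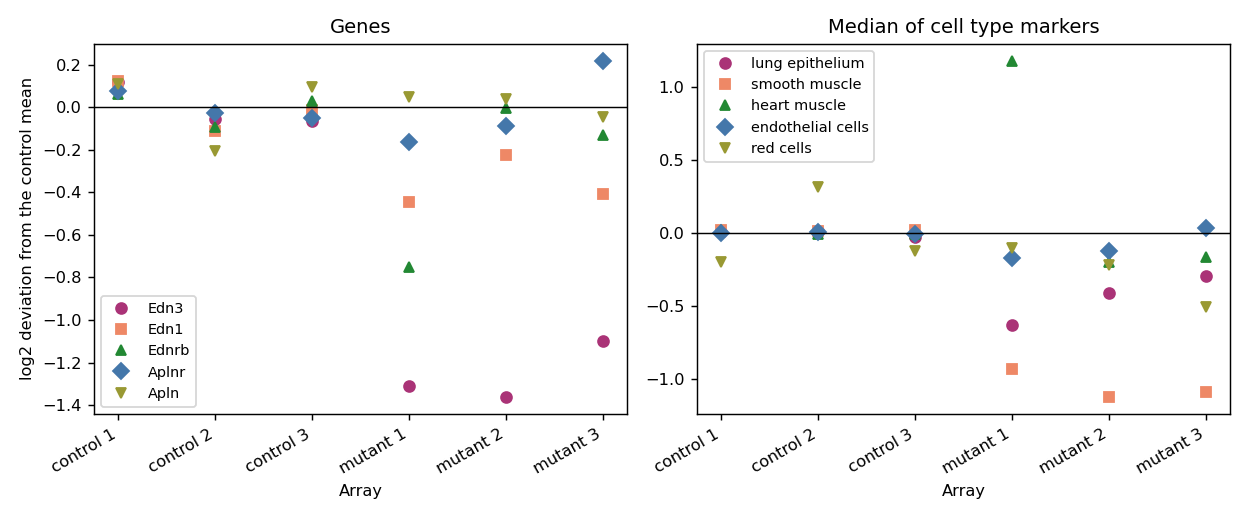
log2 deviation from the control mean (vertical axes) by array, for 5 genes at left and for the median of 5 marker lists at right. Edn3 and the epithelial and smooth muscle markers lie below 0 in all 3 mutants, while Ednrb is low and heart muscle high in mutant 1.

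Ece1 (feature 10509441), the main enzyme that cuts big endothelin to its active form, gave 9.80, 9.74 and 9.84 for the controls, and the mutants were at 9.72, 9.65 and 9.84. The values overlapped, with a difference of -0.06 ± 0.07 (SE, n = 3 per group, 95% interval -0.21 to 0.10, adjusted p = 0.737). Ece2 had 2 features, and they need separate reading. The brighter one, which the rule took (feature 10434441), lists 1 transcript of Eef1akmt4 and 2 of the Eef1akmt4-ece2 fusion but 0 of the 2 transcripts that RefSeq gives to Ece2 alone. Its control values were 7.95, 7.94 and 7.87, and its mutant values 7.92, 8.38 and 7.88. The difference of 0.14 ± 0.13 (adjusted p = 0.634) rested on mutant 2, and it was -0.02 without that array. The other feature (10434446) lists both Ece2 transcripts and 2 fusion transcripts. The controls there gave 6.54, 6.77 and 6.76, below the mutants at 6.96, 6.95 and 6.99, with no overlap. The difference was 0.28 ± 0.07, with an adjusted p of 0.0646 when this feature was put in place of the first, a choice made after its values were seen.

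Other genes were read from lists of enzymes, effectors, related peptides, regulators of Edn1, and genes of neural crest and the facial arches. In the list for peptide processing and clearance, 2 of 14 measured genes fell and 1 rose, with a median difference of -0.06 against -0.01 over all genes. At an unadjusted limma p under 0.05 the counts were also 2 lower and 1 higher. By adjusted p, 3.83% of all genes were lower and 3.84% higher. Pcsk6, a proprotein convertase, fell by 0.78 on the log2 scale (from 8.96 ± 0.03 to 8.18 ± 0.04, SD, n = 3, adjusted p = 0.000145). Kel, the Kell metalloprotease that can cut big endothelin-3, was at -0.43 (adjusted p = 0.016), and its call ended without control 2, control 3 or mutant 3 (adjusted p up to 0.0792). Kel is also a red cell gene, and 3 of 8 red cell markers fell in the same comparison, led by Slc4a1 (-1.09) and Alas2 (-1.04). At an unadjusted limma p under 0.05 the red cell counts were also 3 lower and 0 higher. The mean level of the 8 markers was between 8.37 and 8.89 in controls and between 8.04 and 8.27 in mutants. Their part in the Kel value was not tested. Furin, the convertase that opens many peptide precursors, was at 0.28 (adjusted p = 0.0436), and its call held in 1 of 6 fits with an array left out, that without mutant 2 (adjusted p up to 0.175).

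Downstream of the receptors, most genes did not pass. Of 31 G proteins and effectors, 2 rose and 1 fell, with a median of -0.02, beside 3.84% higher and 3.83% lower over all genes. At an unadjusted limma p under 0.05, 5 were higher and 3 lower. Plcb1, a phospholipase that Gq-coupled receptors activate, rose from 8.19 ± 0.07 to 8.79 ± 0.06 (SD, n = 3, difference 0.60 ± 0.06 SE, adjusted p = 0.00105). Itpr2, a calcium release channel opened by the product of that enzyme, rose by 0.56 ± 0.08 (adjusted p = 0.00525). The related genes Plcb2 (0.43), Plcb3 (-0.08), Plcb4 (-0.09) and Itpr3 (-0.09) were not called. The cation channel gene Trpc6 was at -0.29 (adjusted p = 0.033), and its call held in 1 of 6 fits with an array left out, that without control 1 (adjusted p up to 0.144).

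Of other vasoactive peptide genes, 16 of 17 were not called, and of their receptors and enzymes 22 of 27. The share called was above the 7.66% of all genes for the receptors and enzymes and below it for the peptides. Neither list was tested as a set. Among 17 peptide genes, Agt, the angiotensin precursor, fell by 0.62 (adjusted p = 0.0116, and 0.059 without control 3) and 0 rose with limma, also 0 at an unadjusted p under 0.05. Among 27 receptors and enzymes, 3 rose and 2 fell with limma (5 and 3 at an unadjusted p under 0.05), with a median of 0.00. Corin, the protease that activates natriuretic peptide precursors, rose by 0.95 ± 0.14 (adjusted p = 0.00495). Calcrl, the receptor of adrenomedullin and calcitonin gene-related peptide, rose by 0.76 ± 0.11 (adjusted p = 0.00474), with values of 9.27, 9.13 and 8.90 in controls and 9.72, 10.01 and 9.85 in mutants. Vipr2, a receptor of vasoactive intestinal peptide, fell by 0.90 ± 0.06 (adjusted p = 0.000151).

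Genes listed as regulators of Edn1 or as targets of its receptor were mixed. Over all genes, 3.83% were called lower and 3.84% higher. The list of 14 Edn1 regulators, Klf2 and Klf4 among them, was not split by whether a gene raises or lowers Edn1. Of the 14, 3 fell and 0 rose with limma (4 and 0 at an unadjusted p under 0.05). These were Tgfb3 (-1.19 ± 0.06, adjusted p = 3.14e-05), which encodes a TGF-beta ligand, the AP-1 subunit Jun (-0.58 ± 0.06, adjusted p = 0.00117) and Tgfb2 (-0.39, adjusted p = 0.00875, and 0.0523 without control 3). The control values of Tgfb3 were 10.07, 10.10 and 10.03, and the mutants lay apart at 8.95, 8.82 and 8.87. Of 20 hypoxia response genes, a program to which Edn1 and Apln belong in other settings, 3 rose and 0 fell with limma (9 and 0 at an unadjusted p under 0.05), with a median of 0.19. Without mutant 2, 6 rose. Bnip3, a mitophagy receptor, rose by 0.76 ± 0.07 (adjusted p = 0.000432) and Pdk1, a mitochondrial kinase, by 0.41 ± 0.07 (adjusted p = 0.00872). Ldha was at 0.22 (adjusted p = 0.0379), and its call held in 1 of 6 fits with an array left out, that without mutant 2 (adjusted p up to 0.155). The 14 genes listed as targets of Ednra in neural crest and the facial arches had a median of 0.13. Whether any of the 14 responds to Ednra in lung was not tested. At an unadjusted limma p under 0.05, 5 were higher and 1 lower. By adjusted p, the homeobox gene Prrx1 (1.09 ± 0.07, adjusted p = 9.29e-05) and the forkhead gene Foxf2 (0.46 ± 0.06, adjusted p = 0.00388) rose. Foxf1 was at -0.38 (adjusted p = 0.0226), and its call ended without control 1, control 2 or control 3 (adjusted p up to 0.0989).

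**Figure D4:**
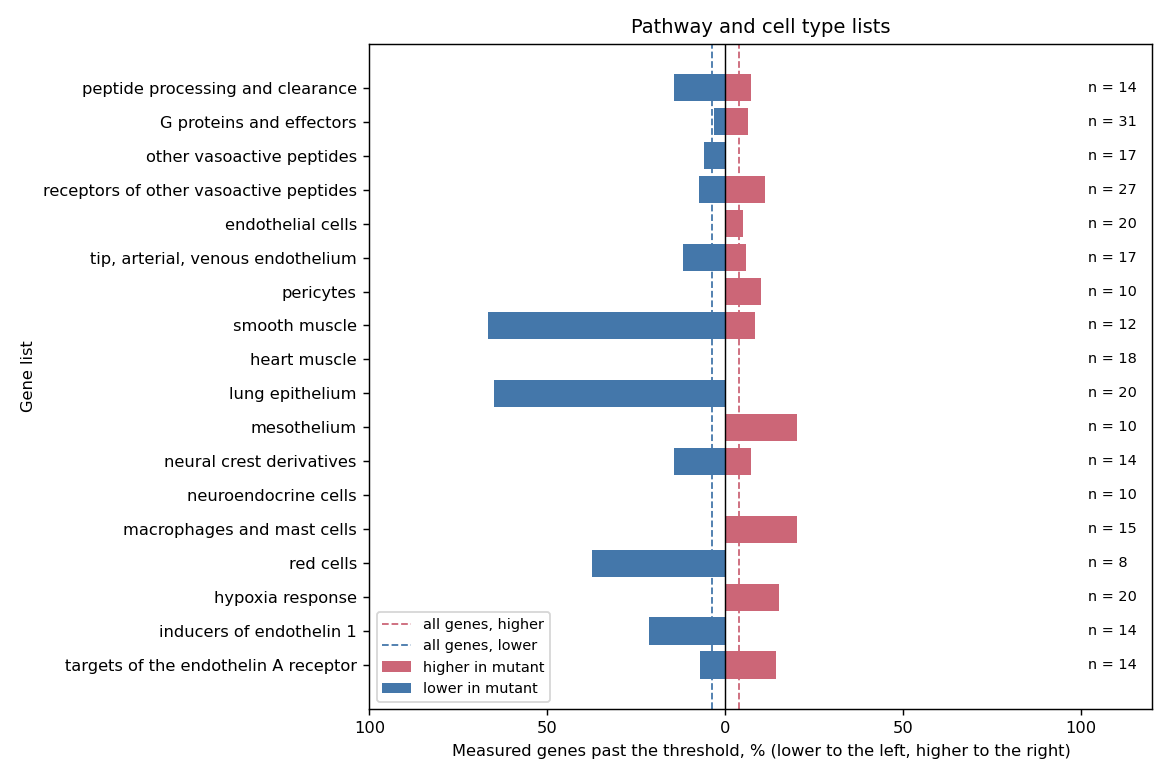
Share of the measured genes of each list that passed an adjusted p of 0.05, lower in mutants to the left and higher to the right, with dashed lines for all genes (3.83% lower, 3.84% higher) and the number measured at the right edge. Smooth muscle and lung epithelium stand out to the left, with 8 of 12 and 13 of 20 genes lower.

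Markers of lung epithelium and smooth muscle were mostly lower in the mutants, while those of endothelium gave 1 higher and 0 lower calls in 20. Over all genes, 3.83% were called lower and 3.84% higher. Of 20 epithelial markers, 13 fell and 0 rose with limma (16 and 0 at an unadjusted p under 0.05), with a median of -0.46 and medians by array of -0.63, -0.41 and -0.29 in mutants 1 to 3. Their mean level was between 9.81 and 9.83 in controls and between 8.93 and 9.06 in mutants, led by Sftpc (-5.58), the surfactant gene of the distal epithelium, and Sox2 (-2.08), the factor of the proximal airways. The count of falls was 8, 7 and 8 without controls 1, 2 and 3. Of 12 smooth muscle markers, 8 fell and 1 rose with limma (10 and 1 at an unadjusted p under 0.05), led by Myh11 (-2.57) and Cnn1 (-2.21). Their median was -1.05, with a mean level between 9.45 and 9.48 in controls and between 8.21 and 8.69 in mutants. The part of epithelial and smooth muscle cells in the Edn3 and Edn1 values was not tested.

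The lineages in which Edn3 and Ednrb are best known were read as well. Of 14 markers of Schwann cell precursors, neural crest and enteric neurons, 2 fell and 1 rose, with a median of 0.00. At an unadjusted limma p under 0.05, 2 were lower and 2 higher. Ret, the receptor kinase of enteric progenitors that is also found in lung, fell by 0.85 ± 0.08 (adjusted p = 0.000578), with values of 7.61, 7.47 and 7.44 in controls and 6.79, 6.59 and 6.58 in mutants. Erbb3 was at -0.57 (adjusted p = 0.0439), and its call held in 1 of 6 fits with an array left out, that without mutant 3 (adjusted p up to 0.145). In the vascular and other lists too, most genes were not called. The share called was still above the 7.66% of all genes in each list that follows, except the neuroendocrine one. No list was tested as a set. Among 17 genes of sprouting, arterial and venous endothelium, the netrin receptor gene Unc5b rose (0.89 ± 0.08, adjusted p = 0.000617) and 2 fell, led by Nrp1 (-0.35, adjusted p = 0.017), whose call ended without control 1, control 2, control 3 or mutant 3 (adjusted p up to 0.0846). At an unadjusted limma p under 0.05, 3 of these 17 were higher and 4 lower. Among 10 pericyte genes, whose median was -0.04, Pdgfrb was higher (0.36, adjusted p = 0.0133), a call that ended without control 1, control 2 or control 3 (adjusted p up to 0.0628), and 0 were called lower (1 at an unadjusted limma p under 0.05). Of 10 mesothelial markers, whose median was -0.07, 2 rose, led by Lrrn4 (0.67, adjusted p = 0.0157), and 0 fell with limma. At an unadjusted p under 0.05, 2 were higher and 2 lower, and 1 was called lower without mutant 1. Between 0 and 2 rose with an array left out, with 0 without control 1 or control 2. Of 15 macrophage and mast cell markers, whose median was 0.24, 3 rose and 0 fell with limma (8 and 0 at an unadjusted p under 0.05). Among the 3 were Adgre1 (0.49, adjusted p = 0.0209) and Csf1r (0.43, adjusted p = 0.0208). In this list 0 rose without control 1 or control 2, 1 without control 3 or mutant 3, 2 without mutant 2 and 5 without mutant 1. Of 10 neuroendocrine markers, 0 passed with limma, and 1 was lower at an unadjusted p under 0.05.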

How the data were processed

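RNA of whole embryonic lungs was measured on 6 arrays, 3 per genotype. The authors deposited log2 values. Their processing notes, as submitted to the archive, list oligo, RMA and limma, with no version, and the settings are not stated there. RMA compresses the differences of dim features. The number of arrays limits the precision.

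Of 35556 features, 21797 name 1 gene in the platform annotation, and 19946 genes were compared, each by its feature of highest mean. Mutants were compared with controls in limma 3.58.1 (R 4.3.3; lmFit and eBayes, genotype as the only term, two-sided), with Benjamini-Hochberg adjustment over all genes and a threshold of 0.05. The p-values set the difference between the groups against the moderated spread between these embryos. The script was tested on simulated data.

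The 10 genes and the lists were chosen with earlier results of these data known. Named are all measured members, up to 3 called genes with the largest difference per pathway list, up to 2 per marker list, and the 3 genes nearest to Apela and to each called member. Alternatives were other normalizations, filters, features, moderation, array weights (statmod 1.5.0), a replicate block, sex of the embryo and each array left out. Sequences and their coordinates are from RefSeq tables of GRCm38.p6, and the series names no build. Of the listed genes, 9 have a promoter there, all but Aplnr.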

Additional observations from a re-analysis of the deposited data

How the results depend on the processing

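Edn3 kept its fall and its call under each of the 15 alternatives run (differences -1.33 to -1.19, adjusted p at most 0.00234), and the Apela difference lay between 2.69 and 3.23 in all 15. The fall of Edn1 kept its direction but lost the call in 9 of 15, so that the count of lower genes among the 8 tested was 1 instead of 2 with each array centred on its median (adjusted p of Edn1 0.0513), with all features tested (0.108), with the replicate block (0.0958), with embryo sex as a covariate (0.0692) and with a fold of at least 1.5 required as well. With an array left out that count ranged from 1 to 2. No other gene of the 8 was called at 0.05 under any alternative, or at 0.1 in the main fit. By its other feature, Ece2 had a limma adjusted p of 0.0646, which is under 0.1.

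Differences near 0 changed sign. Apln went to -0.0039 with quantile normalization applied again, to -0.0088 with each array centred, and to -0.088 and -0.0038 without control 2 and without mutant 1. Aplnr went to 0.065 with array weights and to 0.026, 0.065 and 0.028 without control 1, mutant 1 and mutant 2 (left-out range -0.13 to 0.065). The left-out range of Apln was -0.088 to 0.069, and that of Ece2 -0.021 (without mutant 2) to 0.23. The cause was not tested.

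Deviations of embryos with equal replicate numbers correlated at -0.069, 0.049 and 0.154, and those of the other pairs at -0.15 to 0.079. The pair at 0.154, control 3 and mutant 3, are both male. With 3 arrays per group these values cannot decide whether embryos were paired. The block lowered the calls over all genes from 1528 to 1137. The list counts with an array left out, and the other Ece2 feature, were added after seeing the data. With 3 arrays per group, small differences could not be told from the spread. The files used here give no detection calls, so whether Edn2, or Apela in the controls, was above background was not tested.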
